A study of Mus musculus with 20 samples.

Results

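Mouse bone marrow-derived macrophages that had received a control siRNA were exposed to lipopolysaccharide (LPS) together with dexamethasone (Dex), and their transcript levels were set against those of vehicle-treated macrophages with the same siRNA. The comparison asks which transcript levels are left changed when an inflammatory stimulus and an anti-inflammatory steroid act at the same time. All genes of the deposited table were members, and 7 of the 20 samples of the study enter it: 4 libraries of Dex+LPS and 3 of vehicle. Marrow came from male C57BL/6J mice, was cleared of erythrocytes, passed over Ficoll and grown for 7 days with 30% supernatant of L929 cells, a fibroblast line that secretes the macrophage growth factor. Cells were then transfected with 50 nM of a siRNA in serum-free medium for 48 h, and the agents were present for the last 6 h. The siRNA was a non-targeting control in the Dex+LPS, LPS and vehicle groups compared, and was directed against Brg1 (Smarca4) in a further 4 Dex+LPS and 3 vehicle libraries that are set beside them at the end. Dex+LPS cells received 1 µM Dex with 100 ng/ml LPS, LPS cells 100 ng/ml LPS with 0.1% ethanol, and vehicle cells 0.1% ethanol with 0.1% D-PBS. The 3 LPS libraries are given beside the comparison because they show where Dex+LPS and LPS alone differ. None of the 20 samples received Dex alone, so a change shared by Dex+LPS and LPS cannot be split into the effects of the agents. Nothing in the labels says whether replicates came from separate mice or cultures. The p-values therefore describe the spread among these libraries, which may be technical.

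LPS, a component of the outer membrane of Gram-negative bacteria, is bound by Toll-like receptor 4 with its partners Cd14 and Ly96. The receptor activates NF-kappaB, MAP kinases and interferon regulatory factors, which turn on cytokines, chemokines and their own inhibitors within hours. Dexamethasone binds the glucocorticoid receptor, a nuclear receptor that raises transcription of genes such as Fkbp5 and Tsc22d3 and is known for lowering many inflammatory transcripts in macrophages.

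Values are normalized reads, that is reads per gene divided by a size factor per library, and log2 fold changes are of log2(normalized reads + 1), Dex+LPS over vehicle unless another pair is named. The 4 Dex+LPS libraries held 13.85 to 18.71 M reads and the 3 vehicle libraries 13.69 to 14.44 M. The macrophage markers Adgre1, Cd68, Csf1r, Itgam, Fcgr1, Mpeg1, Lyz2 and Spi1 were present in all 7 libraries. Summed markers of other cell types stayed at or below 0.0304% of the normalized reads in every library of both groups, and B cell markers made up 0.000648 to 0.00100% in Dex+LPS and 0.00526 to 0.00586% in vehicle libraries. Dex+LPS libraries 2 and 4 stood apart from libraries 1 and 3: the chi-square statistic per gene was 6.31 between libraries 1 and 3, against 24.4 to 42.2 for the pairs that include library 2 or 4, and 6.77 to 9.78 among the vehicle libraries. Without libraries 2 and 4, a setting chosen after their distance was seen, the numbers of genes called higher and lower moved by at most 3 in each list described here. The counts without them are printed for all genes and for the interferon, lipid mediator, glycolysis, oxidative phosphorylation, ribosomal protein and neutrophil marker lists. In the labels, library 4 of Dex+LPS carries a library number from another range than the other 6 libraries, and what the range stands for is not given in the sources used here. LPS library 3 also has a number from that range, and no vehicle library does. Across 8408 genes its deviations from the group mean correlated with those of Dex+LPS library 4 at r = 0.425. Without the libraries numbered in that range 3903 genes were called higher and 4049 lower. In Dex+LPS against LPS 2567 were then called higher and 2863 lower, beside 2827 and 3041 with all libraries. Normalized reads summed to 14.31 to 14.80 M in the Dex+LPS libraries and 11.97 to 12.01 M in the vehicle libraries, and scaling all libraries to equal totals lowers the median log2 fold change over all genes by 0.28. In bulk RNA, fewer cells of a type and less RNA per cell cannot be told apart.

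Of 12061 genes tested, 3932 were higher in Dex+LPS than in vehicle (32.6%) and 4008 were lower (33.2%) at a limma adjusted p under 0.05, and the median log2 fold change over all of them was -0.03. At least 2-fold rises numbered 1589 (13.2%) and at least 2-fold falls 2173 (18.0%). At least 10-fold, 362 genes were higher and 271 lower. Together 65.8% of the genes were called. All Dex+LPS libraries lay above all vehicle libraries in 3673 genes (30.5%) and below all of them in 3981 (33.0%). With all libraries scaled to equal totals the calls were 2721 higher and 5540 lower, and without Dex+LPS libraries 2 and 4 they were 3875 and 3826. For 2311 genes (19.2%) the 95% interval of the log2 fold change lay within -0.5 to 0.5. The same fit called 4341 genes higher (36.0%) and 4464 lower (37.0%) in LPS against vehicle, and 2827 higher (23.4%) and 3041 lower (25.2%) in Dex+LPS against LPS, with at least 2-fold differences in 893 higher (7.4%) and 985 lower (8.17%). These comparisons share libraries, so their values are given side by side.

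**Figure D1:**
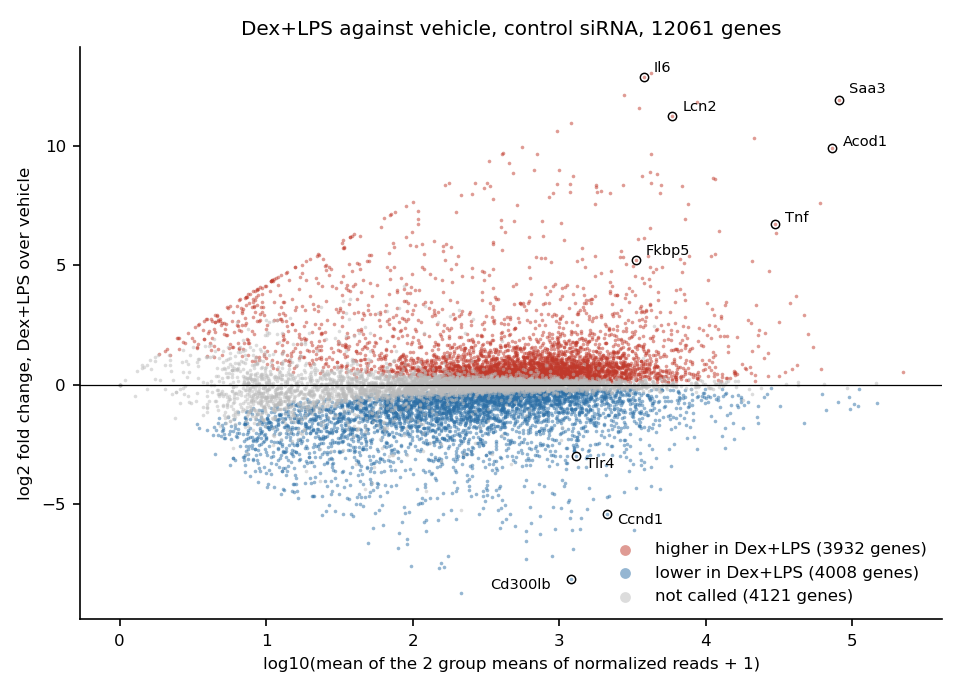
Each point is a gene: the x axis is the log10 of the mean of the Dex+LPS and vehicle group means of normalized reads plus 1, and the y axis the log2 fold change of Dex+LPS over vehicle. Red genes were called higher (3932), blue genes lower (4008) and grey genes were not called. Circled genes are described in the text, with Il6 and Saa3 near the top and Cd300lb near the bottom.

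The 12 largest rises that met the naming rule were Shisa3, Il6, Edn1, Saa3, Cxcl1, Cxcl3, Lcn2, Gfi1, Susd2, Cxcl2, Fscn1 and Acod1. They encode secreted inflammatory proteins for the most part: the cytokine Il6, the neutrophil-attracting chemokines Cxcl1, Cxcl2 and Cxcl3, the vasoconstrictor Edn1, the acute phase protein Saa3 and the iron-scavenger carrier Lcn2. Acod1 makes itaconate from a Krebs cycle intermediate, Fscn1 bundles actin and Gfi1 is a transcriptional repressor of myeloid cells. Il6 and 3 of the chemokine genes lie on chromosome 5, as does Cxcl10, and the bases before their transcription starts are shown because all 5 hold kappaB letters there. Each line gives the 250 bases before the RefSeq start (GRCm38.p6), 5′ to 3′ on the strand of the gene, with matches of the motifs searched in capitals.
Il6 (chr5:30012864-30013113, plus strand): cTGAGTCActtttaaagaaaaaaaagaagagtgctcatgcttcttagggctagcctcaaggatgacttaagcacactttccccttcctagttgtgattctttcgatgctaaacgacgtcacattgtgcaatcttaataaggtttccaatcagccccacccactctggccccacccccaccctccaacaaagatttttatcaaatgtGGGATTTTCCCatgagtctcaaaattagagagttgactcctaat
Cxcl3 (chr5:90785851-90786100, plus strand): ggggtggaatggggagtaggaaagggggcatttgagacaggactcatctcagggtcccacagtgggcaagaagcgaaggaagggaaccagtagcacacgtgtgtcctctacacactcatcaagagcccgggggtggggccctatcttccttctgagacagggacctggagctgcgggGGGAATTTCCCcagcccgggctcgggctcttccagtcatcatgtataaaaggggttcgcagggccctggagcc
Cxcl1 (chr5:90890995-90891244, plus strand): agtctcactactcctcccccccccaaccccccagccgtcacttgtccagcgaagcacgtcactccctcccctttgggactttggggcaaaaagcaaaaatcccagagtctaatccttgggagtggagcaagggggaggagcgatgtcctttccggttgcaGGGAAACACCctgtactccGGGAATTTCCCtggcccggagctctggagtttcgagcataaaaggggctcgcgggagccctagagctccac
Cxcl2 (chr5:90903649-90903898, plus strand): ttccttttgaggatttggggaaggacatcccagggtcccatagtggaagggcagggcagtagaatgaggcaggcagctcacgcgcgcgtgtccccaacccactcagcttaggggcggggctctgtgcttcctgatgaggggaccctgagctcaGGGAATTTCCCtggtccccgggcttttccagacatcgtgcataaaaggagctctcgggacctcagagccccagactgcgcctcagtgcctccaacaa
Cxcl10 (chr5:92348890-92349139, minus strand): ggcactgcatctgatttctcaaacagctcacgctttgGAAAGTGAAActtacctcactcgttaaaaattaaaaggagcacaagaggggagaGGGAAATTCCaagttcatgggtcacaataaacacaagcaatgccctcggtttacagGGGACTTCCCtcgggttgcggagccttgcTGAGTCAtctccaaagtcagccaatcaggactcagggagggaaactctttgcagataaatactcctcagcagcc

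In Cxcl1, Cxcl2 and Cxcl3 the capitals include the shared stretch GGGAATTTCCC, which begins 71, 97 and 73 bases before the start, and Il6 has GGGATTTTCCC from base 44. The kappaB letters searched were GGGA and CC with any 4 bases between them, and each of these 11-base stretches matches them on both strands at once. Il6 also holds the AP-1 letters TGAGTCA at its far end. In Cxcl10 the capitals mark, from left to right, the interferon-stimulated response element letters (GAAA and GAAA with any 2 bases between them) as GAAAGTGAAA, the kappaB matches GGGAAATTCC and GGGACTTCCC, and TGAGTCA. Over all 32851 promoter windows of 300 bases (250 before to 50 after the start), searched on both strands, 20.7% held the kappaB letters, 3.44% the interferon element, 5.2% the AP-1 letters and 0.475% the glucocorticoid element (GNACA and TGTNC with any 3 bases between them). Of the 12 largest rises 11 had a window, and kappaB letters were found in 6 of them, the interferon element in 2, AP-1 in 1 and the glucocorticoid element in 0. Of the 12 largest falls 8 had a window, with kappaB letters in 2, the interferon element in 1, AP-1 in 1 and the glucocorticoid element in 0. A gene was counted if any of its windows held the letters, whereas the shares over all promoters are of single windows, so the measures differ. A match is a description of letters and not a binding site.

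Il6 (ENSMUSG00000025746, chromosome 5, 30013114 to 30019981) had 8681, 7742, 7287 and 6526 normalized reads in the Dex+LPS libraries and was listed at 0 in all 3 vehicle libraries, with 15424, 16803 and 16039 in the LPS libraries. Against a floor of 3 reads over the vehicle group it was at least 8878-fold higher in Dex+LPS (limma adjusted p = 1.17e-22), and against LPS it was lower by a log2 fold change of -1.10 (limma adjusted p = 5.05e-07). Shisa3 (ENSMUSG00000050010, chromosome 5, 67607882 to 67623552), which encodes a membrane-bound adaptor, had 9315, 8429.9, 8729 and 7217 normalized reads in Dex+LPS and was listed at 0 in all vehicle libraries, at least 9878-fold higher. The 4 Dex+LPS libraries of both genes lay in a narrow band far above the vehicle libraries. Saa3 (ENSMUSG00000040026, chromosome 7, 46711998 to 46715700) had 151078, 202114, 148011 and 148764 normalized reads in Dex+LPS against 41.8, 51.4 and 33.2 in vehicle (log2 fold change 11.89, SE 0.12, limma adjusted p = 3.28e-22). Library 2 was the highest of the Dex+LPS libraries and no library overlapped with vehicle. Saa3 made up 1.01 to 1.37% of the normalized reads of a Dex+LPS library and at most 0.000429% of a vehicle library. It stood at 73138 ± 5291 in LPS (SD, n = 3), so that Dex+LPS was above LPS as well (log2 fold change 1.14, limma adjusted p = 3.91e-07).

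Lcn2 (ENSMUSG00000026822, chromosome 2, 32384633 to 32388252), which binds bacterial iron carriers, had 11868, 13609.9, 10735 and 11236 normalized reads in Dex+LPS, against 0.837, 9.11 and 5.24 in vehicle. It was 2342-fold higher (log2 fold change 11.24, SE 0.34, limma adjusted p = 1.67e-15). Dex+LPS was also above LPS, where it averaged 1743 ± 75.7 (SD, n = 3; log2 fold change 2.76, limma adjusted p = 2.57e-06). Susd2 (ENSMUSG00000006342, chromosome 10, 75636706 to 75644008), a membrane protein with a sushi domain, had 1912, 2129, 1815 and 1856 normalized reads in Dex+LPS and 0, 0.83 and 0 in vehicle, where the group held 1 read in all. The ratio was 6808 with a 95% counting interval of 1222 to 268922, and LPS alone reached 42.4 ± 3.50 (SD, n = 3). In Dex+LPS it was higher than in LPS by a log2 fold change of 5.47 (limma adjusted p = 3.39e-14). Fscn1 (ENSMUSG00000029581, chromosome 5, 142960343 to 142973185) was the least even of the 12, with 1100.0, 657, 650.1 and 2068 in Dex+LPS and 0 listed in all vehicle libraries, at least 1412-fold higher.

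Cxcl1 (ENSMUSG00000029380, chromosome 5, 90891241 to 90893115) had 17248, 19299.7, 17206 and 15858 normalized reads in Dex+LPS and 1.67, 5.80 and 5.24 in vehicle (log2 fold change 11.81, SE 0.25, limma adjusted p = 6.26e-18). In LPS it averaged 22433 ± 757 (SD, n = 3), a difference from Dex+LPS that was not called (log2 fold change -0.37, 95% interval -0.89 to 0.15, limma adjusted p = 0.227). Its neighbours Cxcl2 and Cxcl3 averaged 42959 ± 3227 and 7006 ± 637 in Dex+LPS (SD, n = 4) against 32.4 ± 3.86 and 1.4 ± 0.94 in vehicle (SD, n = 3), log2 fold changes of 10.33 and 11.58, and both were lower in Dex+LPS than in LPS (log2 fold changes -0.96 and -2.02, limma adjusted p = 1.99e-07 and 1.58e-06). The 4 Dex+LPS libraries of all 3 chemokine genes lay above every vehicle library. Edn1 (ENSMUSG00000021367, chromosome 13, 42301476 to 42307990) averaged 5513 ± 378 in Dex+LPS (SD, n = 4), with 1 read over all vehicle libraries (ratio 19534, 95% counting interval 3506 to 771565). Gfi1 (ENSMUSG00000029275, chromosome 5, 107716657 to 107726036) averaged 2403 ± 149 in Dex+LPS (SD, n = 4), also with 1 vehicle read (ratio 8529, interval 1530.4 to 336896). Acod1 (ENSMUSG00000022126, chromosome 14, 103046977 to 103056573) averaged 146472 ± 4527 in Dex+LPS (SD, n = 4) and 155 ± 16.7 in vehicle (SD, n = 3), 945-fold higher.

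**Figure D2:**
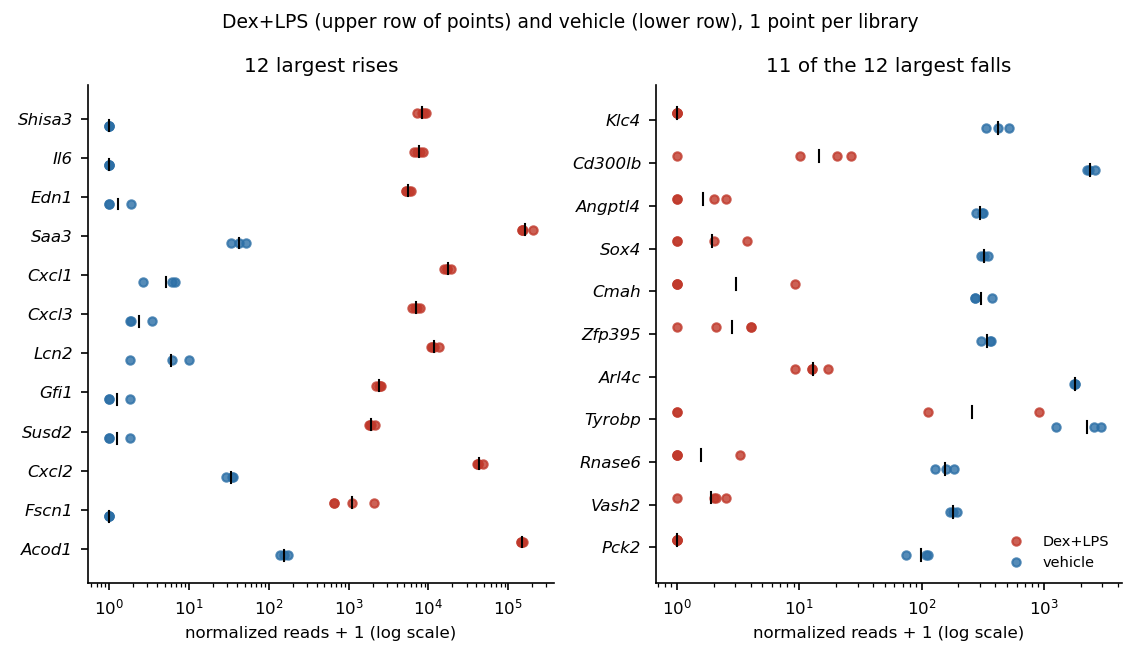
Normalized reads plus 1 on a log axis for the 12 largest rises (left) and 11 of the 12 largest falls (right), with Dex+LPS in red on the upper row of each gene, vehicle in blue on the lower row, 1 point per library and a bar at the group mean. All 12 rises show a tight red cluster apart from the blue one except Fscn1, whose red points spread. Tyrobp among the falls has 2 red points near the left edge and 2 much further right.

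Of the 12 largest falls, 11 are described: Klc4, Cd300lb, Angptl4, Sox4, Cmah, Zfp395, Arl4c, Tyrobp, Rnase6, Vash2 and Pck2. Cd300lb is an activating receptor of the macrophage surface and Tyrobp the adaptor that such receptors signal through. Angptl4 inhibits lipoprotein lipase, Pck2 is a mitochondrial enzyme of glucose synthesis and Sox4 is a transcription factor. Cd300lb (ENSMUSG00000063193, chromosome 11, 114922781 to 114934386) had 25.4, 19.2, 0 and 9.18 in Dex+LPS and 2602, 2269.6 and 2316 in vehicle. Arl4c (ENSMUSG00000049866, chromosome 1, 88673125 to 88702221), a small GTPase, had 11.8, 11.8, 8.14 and 16.1 in Dex+LPS and 1795, 1786 and 1758 in vehicle. Both genes lay low in all 4 Dex+LPS libraries, with log2 fold changes of -8.12 (SE 0.81) and -7.14 (SE 0.17).

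Klc4 (ENSMUSG00000003546, chromosome 17, 46630624 to 46646022), a kinesin light chain, was listed at 0 in all 4 Dex+LPS libraries, against 334, 423 and 514 in vehicle, at least 609.6-fold lower, and Pck2 (ENSMUSG00000040618, chromosome 14, 55540266 to 55551242) was likewise at 0 in Dex+LPS, against 112, 107 and 73.4 in vehicle, at least 141-fold lower. Angptl4 (ENSMUSG00000002289, chromosome 17, 33773750 to 33781830) held 3 reads over all Dex+LPS libraries and averaged 302 ± 23.2 in vehicle (SD, n = 3), a vehicle over Dex+LPS ratio of 436 with a 95% counting interval of 149 to 2119. Rnase6, with 3 reads, gave 225 (76.6 to 1095). Sox4, Cmah, Zfp395 and Vash2 averaged under 3 normalized reads in Dex+LPS and 325 ± 22.1, 306 ± 59.0, 343 ± 34.4 and 181 ± 11.1 in vehicle (SD, n = 3). Tyrobp is the exception to the even falls: it had 0, 111, 913 and 0 in Dex+LPS and 2920.2, 2562 and 1248 in vehicle, and its call (limma adjusted p = 0.0213) was lost under 9 of 19 other settings. It was listed at 0 in all LPS libraries. Reads of Sox4 and Cmah are uncertain because 54.7% and 15.0% of the 31-base words of their transcripts also occur in another gene.

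The receptor complex that senses LPS changed unevenly, with Tlr4 lower and Cd14 and Myd88 higher. Of 21 tested genes of the receptor, adaptors and kinases 14 rose, 3 fell and 4 were not called, and their median log2 fold change was 0.89 beside -0.03 over all genes. Tlr4 (ENSMUSG00000039005, chromosome 4, 66827584 to 66930284) had 289, 227, 383 and 282 normalized reads in Dex+LPS, against 2156, 2394 and 2378 in vehicle, and was 7.83-fold lower (log2 fold change -2.99, SE 0.12, limma adjusted p = 1.33e-13). It was lower in Dex+LPS than in LPS too, where it averaged 947 ± 84.4 (SD, n = 3; log2 fold change -1.70, limma adjusted p = 1.8e-09). Cd14, which hands LPS to the receptor, averaged 39873 ± 5214 in Dex+LPS (SD, n = 4) and 3944 ± 309 in vehicle (SD, n = 3), a log2 fold change of 3.33. Tlr2, the receptor of bacterial lipoproteins, rose by 3.32 on the log2 scale, the kinase Irak2 by 2.71 and the adaptor Myd88 by 1.17. Ly96, the partner of the receptor in LPS binding, rose by 0.89, and Tab1, a partner of the kinase Map3k7, fell by 1.16.

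All 5 NF-kappaB subunit genes rose, with Nfkb2 at a log2 fold change of 3.21, Relb at 2.04, Nfkb1 at 1.95, Rel at 1.49 and Rela at 1.02, and all 5 were lower in Dex+LPS than in LPS. The inhibitors that LPS signalling induces against itself were largely higher as well: of 26 tested 18 rose, 5 fell and 3 were not called, with a median of 2.74. Nfkbia, which holds NF-kappaB in the cytoplasm, averaged 12659 ± 930.3 in Dex+LPS (SD, n = 4) and 787 ± 66.6 in vehicle (SD, n = 3), a log2 fold change of 4.01 (limma adjusted p = 7.39e-19). Tnfaip3, an enzyme that edits ubiquitin on signalling proteins, had 23449.8, 19562, 23506 and 23752 in Dex+LPS, with library 2 the lowest, against 459, 515 and 544 in vehicle (log2 fold change 5.47). Socs3, an inhibitor of cytokine receptors, averaged 8319 ± 665 in Dex+LPS (SD, n = 4) and 17.0 ± 4.84 in vehicle (SD, n = 3). Irak3, a kinase-dead inhibitor of the pathway, rose by 4.04 on the log2 scale and was 1 of the 4 inhibitors that were above LPS too (log2 fold change 0.28, limma adjusted p = 0.00402). Dusp1, which switches off MAP kinases, averaged 6289 ± 789.6 in Dex+LPS (SD, n = 4), 1676 ± 202 in LPS (SD, n = 3) and 1165 ± 38.8 in vehicle (SD, n = 3), above LPS and vehicle alike (log2 fold changes 1.91 and 2.42).

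Other brakes of inflammation did not stay above vehicle. Il10, the main anti-inflammatory cytokine of macrophages, had 48.9, 37.4, 36.6 and 29.8 in Dex+LPS, 285, 292 and 308 in LPS and 139.8, 118 and 91.7 in vehicle. All 4 Dex+LPS libraries were below all vehicle and LPS libraries, with log2 fold changes of -1.59 against vehicle (SE 0.18, limma adjusted p = 2.98e-07) and -2.94 against LPS (limma adjusted p = 1.78e-10). Zfp36, which destabilises cytokine mRNAs, averaged 995 ± 356 in Dex+LPS (SD, n = 4) and 722 ± 139 in vehicle (SD, n = 3) and was not called (log2 fold change 0.42, 95% interval -0.20 to 1.03, limma adjusted p = 0.22). In LPS it averaged 5589 ± 1301 (SD, n = 3). Atf3, a repressor of inflammatory genes, fell to 612 ± 60.3 in Dex+LPS (SD, n = 4), against 6968 ± 182 in vehicle (SD, n = 3), a log2 fold change of -3.51. Dusp5, an inhibitor of the ERK kinases, fell by 1.98 and the mRNA decay factor Zfp36l1 by 2.76.

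Most cytokine and chemokine genes were above vehicle, and most were below LPS. Of 30 tested primary response genes, whose induction needs no newly made protein, 23 rose, 4 fell and 3 were not called (median log2 fold change 3.17). Of 26 tested secondary response genes 25 rose and 1 was not called (median 8.18, and the same with the members listed at 0 in vehicle set to their lower bound). In Dex+LPS against LPS, 5 genes were higher and 19 lower of the secondary list and 2 genes were higher and 23 lower of the primary list. Tnf (ENSMUSG00000024401, chromosome 17, 35199381 to 35202007), the founding cytokine of its family, had 58808, 64253, 55569 and 56316 normalized reads in Dex+LPS, against 535, 542 and 587 in vehicle, 106-fold higher (log2 fold change 6.72, SE 0.05, limma adjusted p = 1.44e-23). In LPS it averaged 107695 ± 3415 (SD, n = 3), and the Dex+LPS to LPS difference was -0.88 on the log2 scale (limma adjusted p = 1.67e-10).

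Il1b (ENSMUSG00000027398, chromosome 2, 129364570 to 129371139), a fever-inducing cytokine, had 11338, 9289, 8664 and 7737 in Dex+LPS, 188868, 177982 and 166720.0 in LPS and 19.3, 14.1 and 26.2 in vehicle. The 3 groups did not overlap, and Dex+LPS was 466-fold above vehicle and 19.2-fold below LPS (log2 fold changes 8.82 and -4.28, limma adjusted p = 9.04e-18 and 2.01e-12). Il1a, its close relative, averaged 1339 ± 316 in Dex+LPS (SD, n = 4), 40992 ± 3643 in LPS (SD, n = 3) and 1.68 ± 0.819 in vehicle (SD, n = 3). Il12b, a subunit shared by Il-12 and Il-23, had 1385, 724, 900.4 and 865 in Dex+LPS and 0, 3.31 and 0.874 in vehicle, a log2 fold change of 8.87, and was lower than in LPS by 3.54 on the log2 scale. Il12a and Il23a, the partners of that subunit, were listed at 0 in vehicle and were at least 147-fold and 43.7-fold higher in Dex+LPS. Csf2, the granulocyte-macrophage growth factor, was low in Dex+LPS: it had 9.06, 6.41, 6.10 and 5.36 in Dex+LPS, 655, 620.1 and 528 in LPS and 1 read over all vehicle libraries. The Dex+LPS over vehicle ratio of Csf2 was 23.8, with a 95% counting interval of 3.94 to 970.2. Ifnb1, interferon beta, held 1.24 ± 0.952 in Dex+LPS (SD, n = 4) and 0 in vehicle and was not called by limma (adjusted p = 0.0577), whereas 5 of 18 other settings called it, among them edgeR on the recovered reads (log2 fold change 3.44).

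Of 43 tested cytokines and cytokine receptors 28 rose, 9 fell and 6 were not called (median 0.96), and with equal totals 22 were higher and 12 lower. Il15ra, which presents Il-15, averaged 1704 ± 170.0 in Dex+LPS (SD, n = 4), 553 ± 35.7 in LPS (SD, n = 3) and 48.7 ± 11.0 in vehicle (SD, n = 3), and was above both. Csf3, the granulocyte growth factor, averaged 177 ± 35.6 in Dex+LPS (SD, n = 4) and 83.4 ± 18.2 in LPS (SD, n = 3) and was listed at 0 in vehicle, at least 212-fold higher. Among the falls, the growth factor gene Pdgfb averaged 71.4 ± 18.6 in Dex+LPS (SD, n = 4) and 1120.4 ± 58.4 in vehicle (SD, n = 3), a log2 fold change of -3.99, and Vegfa, the vessel growth factor, fell by 3.72 on the log2 scale. Osm, a cytokine of the Il-6 family, averaged 33.3 ± 6.20, 224 ± 24.7 and 56.4 ± 1.83 in Dex+LPS, LPS and vehicle (SD, n = 4, 3 and 3), below vehicle in Dex+LPS (limma adjusted p = 8.21e-05).

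Of 24 tested chemokines 18 rose, 3 fell and 3 were not called (median 3.0), and against LPS 21 were lower and 1 higher. Ccl3 and Ccl4, which attract monocytes and lymphocytes, rose by 6.35 and 4.12 on the log2 scale. Ccl5 had 21433, 28366, 20548 and 21703 in Dex+LPS, with library 2 the highest, against 51.9, 57.2 and 63.8 in vehicle (log2 fold change 8.61, limma adjusted p = 5.65e-22). Ccl17 was the chemokine that Dex+LPS raised above LPS: it averaged 826 ± 141 in Dex+LPS (SD, n = 4) and 218 ± 46.6 in LPS (SD, n = 3), was listed at 0 in vehicle and was at least 971-fold higher. The monocyte chemokines Ccl2 and Ccl7 were close to vehicle instead. Ccl2 averaged 130.0 ± 11.3 in Dex+LPS (SD, n = 4), 1409 ± 109.5 in LPS (SD, n = 3) and 82.6 ± 14.1 in vehicle (SD, n = 3), a log2 fold change of 0.66 (limma adjusted p = 0.000121). Ccl7 had 12.7, 11.8, 13.2 and 17.6 in Dex+LPS and 22.6, 23.2 and 22.7 in vehicle and was lower (log2 fold change -0.70, limma adjusted p = 0.000202).

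Of 13 tested receptors for chemotactic signals 4 rose, 7 fell and 2 were not called (median -2.30). Cxcr4, the receptor of Cxcl12, averaged 60.2 ± 12.7 in Dex+LPS (SD, n = 4) and 2338 ± 38.7 in vehicle (SD, n = 3), Cx3cr1 5.15 ± 2.19 and 293 ± 52.1, and Ccr2 1.78 ± 2.10 and 157 ± 11.3. Those 3 log2 fold changes were -5.28, -5.65 and -6.21. The receptors of bacterial formyl peptides rose: Fpr1 held 533, 569.6, 537 and 464 in Dex+LPS and 2 reads over the vehicle libraries, and Fpr2 averaged 3595 ± 486 in Dex+LPS (SD, n = 4) and 12.5 ± 2.98 in vehicle (SD, n = 3). Reads of Fpr2 are uncertain, since 43.0% of its 31-base words occur in another gene. C5ar1, the receptor of a complement fragment, rose by 0.81 on the log2 scale, whereas C3ar1 fell by 2.65.

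**Figure D3:**
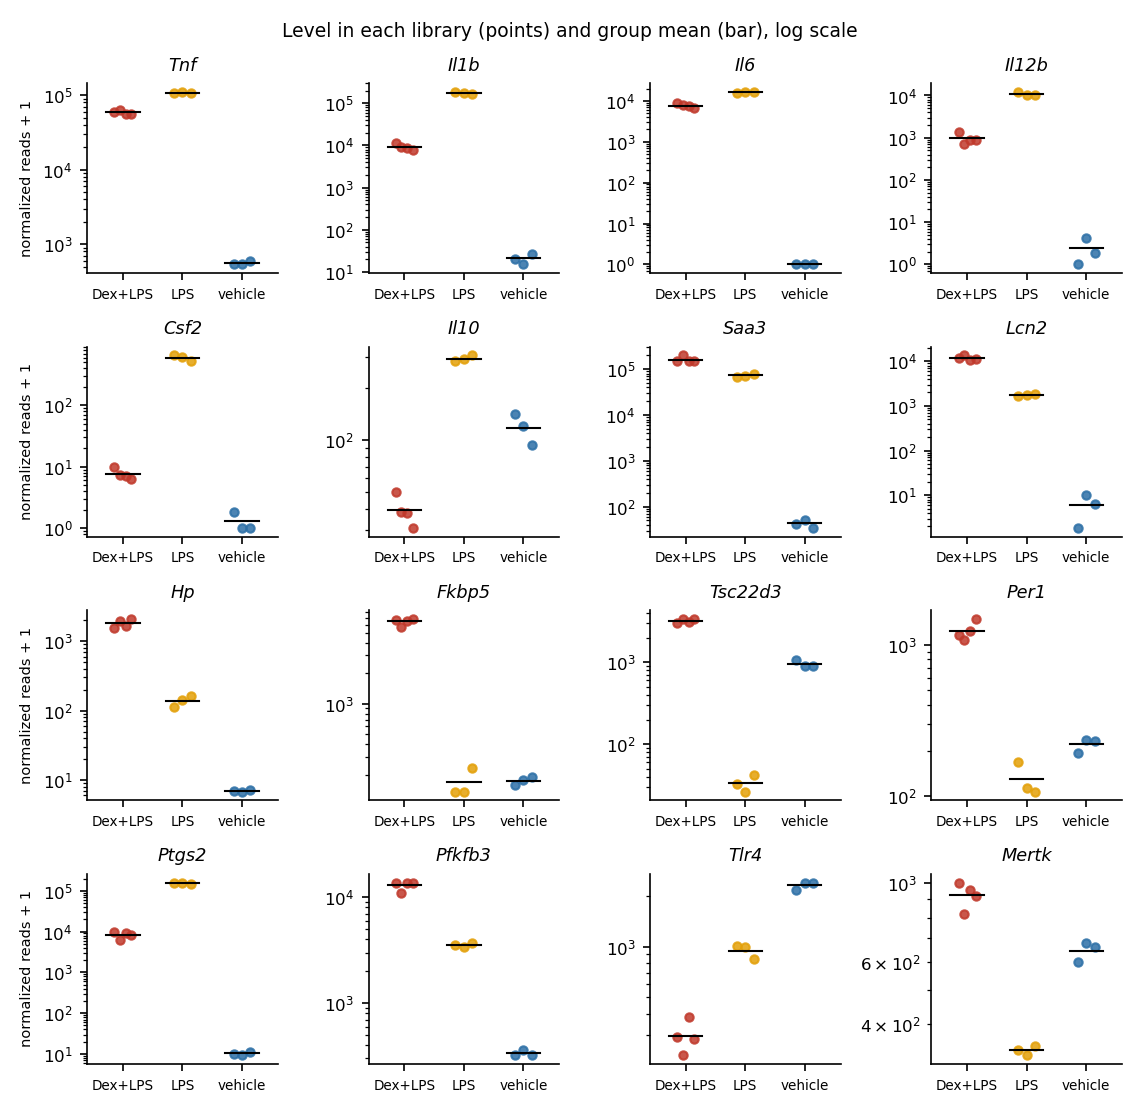
Normalized reads plus 1 on a log axis in each library (points) with the group mean (bar) for 16 genes, with Dex+LPS in red on the left, LPS in yellow in the middle and vehicle in blue on the right of each panel. Tnf, Il1b, Il12b and Ptgs2 lie between LPS and vehicle in Dex+LPS, Il10 and Tlr4 lie below both, and Saa3, Lcn2, Hp, Fkbp5, Tsc22d3, Per1, Pfkfb3 and Mertk lie above both.

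Interferon-stimulated genes, which code for antiviral effectors and their regulators, split around the vehicle level. Of 38 tested 14 rose, 16 fell and 8 were not called, beside 32.6% of all genes higher and 33.2% lower. The median log2 fold change was -0.05 beside -0.03 over all genes. With equal totals 13 were higher and 19 lower, and without Dex+LPS libraries 2 and 4 the counts were 17 and 13. In LPS against vehicle, 35 of the 38 rose (median 2.62), and in Dex+LPS against LPS all 38 fell (median -2.0). Cxcl10 (ENSMUSG00000034855, chromosome 5, 92346638 to 92348889), a T cell-attracting chemokine whose upstream bases are printed above, had 1743, 1374, 1443 and 1647 in Dex+LPS, 17459, 16079 and 18337 in LPS and 42.7, 41.4 and 32.3 in vehicle. Its groups did not overlap (log2 fold change 5.29, SE 0.12, limma adjusted p = 3.66e-17).

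Gbp2, a guanylate-binding GTPase, averaged 13234 ± 1299 in Dex+LPS (SD, n = 4) and 503 ± 67.3 in vehicle (SD, n = 3), a log2 fold change of 4.72, and Isg15, a ubiquitin-like protein, rose by 2.11. At the other end, Irf7, the regulator that amplifies interferon production, averaged 1858 ± 202 in Dex+LPS (SD, n = 4), 5907 ± 461 in LPS (SD, n = 3) and 4275 ± 763 in vehicle (SD, n = 3), below both (log2 fold change against vehicle -1.19, limma adjusted p = 5.42e-09). Stat2, a signal carrier of the interferon receptors, fell by 0.75 on the log2 scale. Ifit3, an RNA-binding antiviral protein, had 979.5, 883, 969 and 826 in Dex+LPS and 4939, 5128 and 3691 in vehicle, a log2 fold change of -2.31 (SE 0.10, limma adjusted p = 1.84e-13). Its neighbour in function Ifit1 rose by 1.57, and Ifit2 fell by 1.18. Rsad2, an antiviral enzyme, averaged 2593 ± 482 in Dex+LPS (SD, n = 4), 46363 ± 569.8 in LPS (SD, n = 3) and 1705 ± 231 in vehicle (SD, n = 3), and so stood near vehicle (log2 fold change 0.59). Irf1, which belongs to the primary response, rose by 2.66 (limma adjusted p = 1.7e-19).

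**Figure D4:**
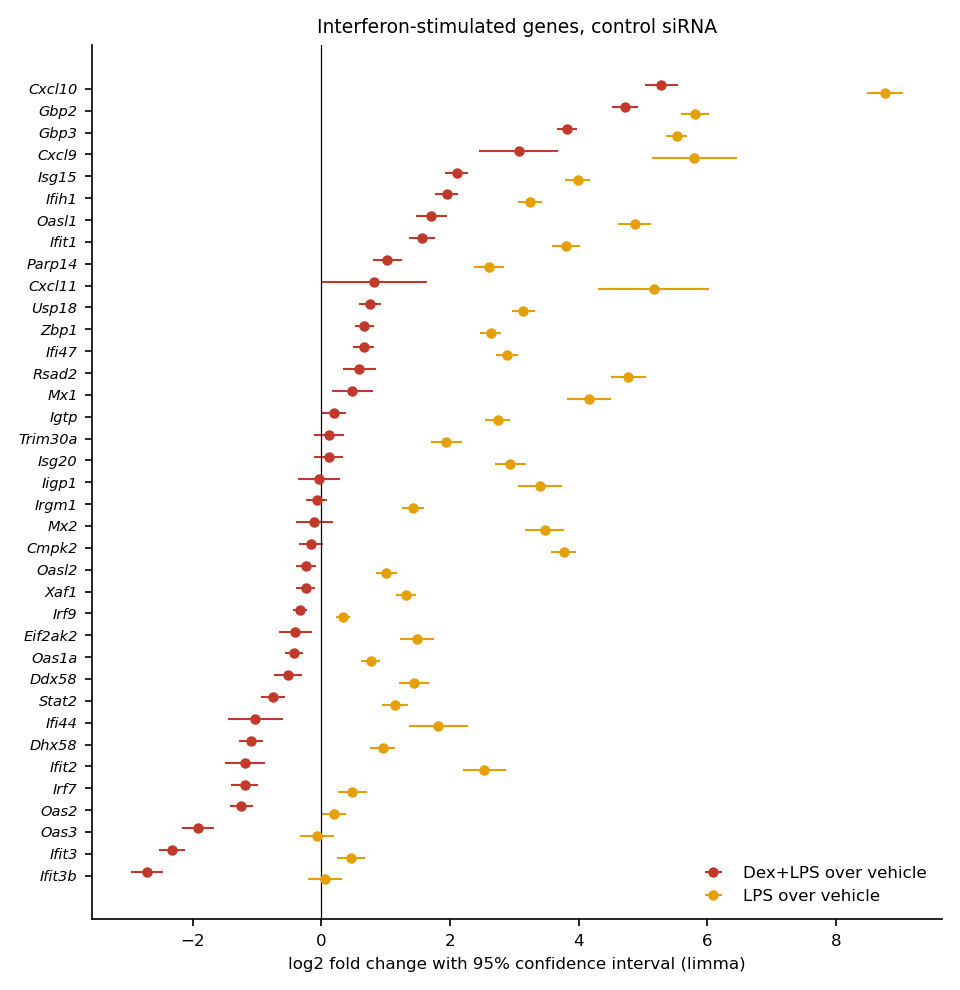
Log2 fold changes with 95% confidence intervals for 37 of the 38 interferon-stimulated genes, Dex+LPS over vehicle in red on the upper row and LPS over vehicle in yellow on the lower row of each gene, ordered by the red value. Both comparisons use the same vehicle libraries. Red points run from -2.71 (Ifit3b) to 5.29 (Cxcl10) and lie left of the yellow point in every gene shown.

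Genes known to be induced by glucocorticoids were higher in 25 of 36 tested, lower in 6 and not called in 5 (median log2 fold change 1.64). In Dex+LPS against LPS 18 of the 36 were higher, 12 lower and 6 not called (median 0.57), and in LPS against vehicle 17 were higher and 14 lower. Nfkbia, a member described above, was higher in Dex+LPS than in vehicle and lower than in LPS (log2 fold change -0.54, limma adjusted p = 6.27e-06). Fkbp5 (ENSMUSG00000024222, chromosome 17, 28399094 to 28517527), a cochaperone that restrains the glucocorticoid receptor, had 6743, 5724, 6545 and 6859.7 in Dex+LPS, 135, 135 and 230.0 in LPS and 158, 176 and 187 in vehicle. All Dex+LPS libraries lay far above the others, and LPS did not differ from vehicle by the test (log2 fold change 5.21, SE 0.17, limma adjusted p = 3.25e-15 for Dex+LPS over vehicle, and 0.617 for LPS over vehicle). Tsc22d3 (ENSMUSG00000031431, chromosome X, 140539528 to 140600659), the leucine zipper protein GILZ, had 3023, 3355, 3126 and 3377 in Dex+LPS, 31.6, 25.5 and 40.6 in LPS and 1050.4, 894 and 901 in vehicle. It was above vehicle in Dex+LPS and below vehicle in LPS (log2 fold changes 1.76 and -4.84, limma adjusted p = 1.63e-10 and 1.3e-16). Per1, a clock gene, Klf9, a transcription factor, and Tns1, an actin-binding protein, had the same order of groups. Klf9 averaged 667 ± 76.9 in Dex+LPS (SD, n = 4), 81.8 ± 14.3 in LPS (SD, n = 3) and 209 ± 6.64 in vehicle (SD, n = 3), and Tns1 6445 ± 1616, 213 ± 44.1 and 759 ± 64.9. Sgk1, a kinase, averaged 1785 ± 103 in Dex+LPS (SD, n = 4) and 888 ± 113 in vehicle (SD, n = 3), a log2 fold change of 1.01.

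Members of the same list that fell were Rgs2, Ptger4, Arl4d, Txnip, Errfi1 and Anxa1. Rgs2, which shortens G protein signals, averaged 93.8 ± 17.7 in Dex+LPS (SD, n = 4), 433 ± 93.8 in LPS (SD, n = 3) and 6387 ± 273 in vehicle (SD, n = 3), a log2 fold change of -6.09. Txnip, an inhibitor of thioredoxin and of glucose uptake, fell by 1.81. Zbtb16, a zinc finger factor, was listed at 0 in all LPS libraries and averaged 35.3 ± 14.7 in Dex+LPS (SD, n = 4) and 51.9 ± 14.3 in vehicle (SD, n = 3), a difference that was not called (limma adjusted p = 0.211). The receptor gene Nr3c1 averaged 3608 ± 846 in Dex+LPS (SD, n = 4), 5102 ± 210.1 in LPS (SD, n = 3) and 1586 ± 154 in vehicle (SD, n = 3), above vehicle (log2 fold change 1.16, limma adjusted p = 3.66e-07) and below LPS. Of its 13 tested cofactors and chaperones, the receptor included, 6 rose, 3 fell and 4 were not called. Over all genes 32.6% were higher and 33.2% lower. The median of the 13, 0.04, becomes -0.25 with equal totals.

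The metallothioneins, small zinc-binding proteins that respond to metals and to glucocorticoids, were among the genes above both other groups. Mt2 had 7438, 11493, 8106 and 12065 in Dex+LPS, 1116, 851 and 1149.8 in LPS and 33.5, 31.5 and 42.8 in vehicle, and Mt1 averaged 7229 ± 1784 in Dex+LPS (SD, n = 4) and 368 ± 14.0 in vehicle (SD, n = 3), log2 fold changes of 8.03 and 4.26. No Dex+LPS library of either gene overlapped with vehicle, and 58.1% of the 31-base words of Mt2 occur in another gene. Of 15 acute phase and iron genes 12 rose, 3 fell and 0 were not called (median 3.26, or 3.38 with members listed at 0 in vehicle at their lower bound). Hp, the haemoglobin-binding haptoglobin, had 1525, 1956, 1678 and 2095 in Dex+LPS, 112, 141 and 163 in LPS and 5.86, 5.80 and 6.12 in vehicle, with no overlap between groups (log2 fold change 8.02 over vehicle and 3.71 over LPS). Cp, the copper oxidase ceruloplasmin, averaged 5424 ± 574 in Dex+LPS (SD, n = 4) and 16.8 ± 8.12 in vehicle (SD, n = 3), a log2 fold change of 8.37. Slc40a1, the iron exporter ferroportin, fell to 238 ± 13.2 in Dex+LPS (SD, n = 4), against 1435 ± 54.4 in LPS (SD, n = 3) and 5335 ± 287 in vehicle (SD, n = 3), and the log2 fold change over vehicle was -4.48 (limma adjusted p = 1.28e-19). The transferrin receptor gene Tfrc fell by 1.00.

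Of 16 tested clock genes 8 rose, 7 fell and 1 was not called, beside 32.6% of all genes higher and 33.2% lower. Per1 had 1167, 1069.8, 1226 and 1483 in Dex+LPS, 167, 112 and 106 in LPS and 192, 234 and 232 in vehicle, with the Dex+LPS libraries highest (log2 fold change 2.49, limma adjusted p = 1.08e-11). Further repressors of the negative limb, Per2, Cry1 and Cry2, rose by 2.73, 3.48 and 1.68 on the log2 scale. Per3 was called lower instead, as were Bhlhe40 and Bhlhe41. Nr1d1 and Nr1d2, the REV-ERB nuclear receptors, fell by 3.90 and 3.0, and Dbp, an output factor, by 5.27. Clock and Arntl, the activators, rose by 1.17 and 0.78.

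All 15 tested genes of lipid mediators were called, 6 higher and 9 lower. Over all genes 65.8% were called, 32.6% higher and 33.2% lower. Without Dex+LPS libraries 2 and 4 the counts of the list were 6 higher and 8 lower. Ptgs2, the inducible cyclooxygenase, had 9978, 6213, 9379 and 8056 in Dex+LPS, 159344, 160167 and 150082 in LPS and 9.21, 8.29 and 10.5 in vehicle. The 3 groups did not overlap, and the log2 fold change was 9.65 over vehicle (SE 0.13, limma adjusted p = 1.34e-20) and -4.24 over LPS. Ptges, the next enzyme towards prostaglandin E2, averaged 9920.3 ± 694 in Dex+LPS (SD, n = 4), 13088 ± 908 in LPS (SD, n = 3) and 29.9 ± 6.81 in vehicle (SD, n = 3). Enzymes of other branches fell: Hpgds, which makes prostaglandin D2, by 2.95 on the log2 scale, Alox5, the first leukotriene enzyme, by 2.70, its activating protein Alox5ap by 1.28 and Ptgs1, the constitutive cyclooxygenase, by 2.77. Pla2g7, which degrades platelet-activating factor, rose by 1.96 and was above LPS as well.

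In nitric oxide and arginine metabolism 7 rose, 2 fell and 2 were not called of 11 tested. Nos2, the inducible nitric oxide synthase, had 1879, 1642, 2006 and 2147 in Dex+LPS and 9.21, 4.14 and 2.62 in vehicle (log2 fold change 8.38, limma adjusted p = 6.55e-15), and averaged 6327 ± 191 in LPS (SD, n = 3). Slc7a2, an arginine importer, averaged 3566 ± 864 in Dex+LPS (SD, n = 4) and 11.5 ± 6.80 in vehicle (SD, n = 3), and Gch1, which starts the synthesis of a cofactor of nitric oxide synthase, rose by 2.10. Arg1 is not analysed here. Odc1, the first enzyme of polyamine synthesis, fell by 0.81 on the log2 scale.

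Among immediate early factors and their relatives 8 rose, 6 fell and 4 were not called of 18 tested, beside 32.6% of all genes higher and 33.2% lower, and the median of 0.18 becomes -0.11 with equal totals. Maff, a small Maf protein, averaged 2367 ± 367 in Dex+LPS (SD, n = 4) and 16.6 ± 14.6 in vehicle (SD, n = 3), and Batf rose by 4.92 on the log2 scale. Fos averaged 328 ± 45.4 in Dex+LPS (SD, n = 4), 446 ± 41.5 in LPS (SD, n = 3) and 2739.8 ± 84.0 in vehicle (SD, n = 3), a log2 fold change of -3.07, and Myc, a driver of growth and division, fell by 1.95.

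The macrophage program was lower in most of its members: of 32 identity genes 9 rose, 20 fell and 3 were not called (median -0.57). Over all genes 32.6% were higher and 33.2% lower. In LPS against vehicle 9 of the 32 rose and 21 fell (median -0.50). Adgre1 and Itgam, markers named above, were among the genes that rose in Dex+LPS. Maf, a factor of macrophage differentiation, fell by 2.95. Irf8 fell by 3.31, whereas Spi1, the factor PU.1, rose by 0.87, Cebpb by 3.15 and Tfec by 4.98. Of surface and vacuolar proteins, Fcgr1, the high-affinity antibody receptor, fell by 2.95, while Fcgr2b, the inhibitory one, rose by 4.73. Lyz2, which encodes lysozyme, averaged 149482 ± 16905 in Dex+LPS (SD, n = 4) and 142359 ± 7362 in vehicle (SD, n = 3) and was not called (log2 fold change 0.07, 95% interval -0.09 to 0.22). Csf1r, the receptor of the macrophage growth factor, fell by 0.15, a call that was lost under 9 of 19 other settings.

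Genes of alternative activation and of the clearance of dead cells were lower in 15 of 26, higher in 8 and not called in 3 (median -0.95). Mrc1, the mannose receptor, had 1955, 1974, 2191 and 1935 in Dex+LPS, with library 3 the highest, against 4757, 5522 and 5748 in vehicle (log2 fold change -1.40, limma adjusted p = 4.24e-11). Mertk, a receptor for apoptotic cells, averaged 924 ± 78.9 in Dex+LPS (SD, n = 4), 336 ± 10.2 in LPS (SD, n = 3) and 644 ± 41.0 in vehicle (SD, n = 3), above both (log2 fold change over vehicle 0.52, limma adjusted p = 9.22e-06). Its bridging ligand Gas6 went the other way and fell by 2.31 on the log2 scale, and Pros1, another ligand, by 1.41. Lyve1, a hyaluronan receptor of resident macrophages, averaged 72.8 ± 9.80 in Dex+LPS (SD, n = 4) and was listed at 0 in vehicle, at least 85.2-fold higher, with 0.386 ± 0.668 in LPS (SD, n = 3). Marco, a scavenger receptor of bacteria, rose by 8.45, and Thbs1 by 5.06. Clec7a, the receptor of fungal glucans, fell by 2.99, Cd300a by 3.34 and Cd36 by 1.31.

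Lysosomal genes were lower in 19 of 28, higher in 5 and not called in 4 (median -0.50). Lipa, the lysosomal lipase, averaged 11199 ± 544 in Dex+LPS (SD, n = 4) and 34077 ± 1024 in vehicle (SD, n = 3), a log2 fold change of -1.61, and Tfeb, a regulator of lysosomal genes, fell by 1.93. The cathepsins Ctsb, Ctsd and Ctss fell by 0.75, 0.82 and 0.74, and Ctsl rose by 0.42, a call that was lost with equal totals (0.13). Ctsc, the protease that activates serine proteases, averaged 1921 ± 237 in Dex+LPS (SD, n = 4), 16299.6 ± 596 in LPS (SD, n = 3) and 1758 ± 173 in vehicle (SD, n = 3), and the vehicle difference was not called (limma adjusted p = 0.255).

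Antigen presentation genes were mostly higher. Of 13 class II and costimulatory genes 8 rose, 1 fell and 4 were not called (median 0.56), and of 18 class I genes 13 rose, 1 fell and 4 were not called, which becomes 8 higher and 3 lower with equal totals. Cd40, a costimulatory receptor, averaged 14953 ± 1171 in Dex+LPS (SD, n = 4), 36665 ± 2757 in LPS (SD, n = 3) and 77.4 ± 8.24 in vehicle (SD, n = 3), a log2 fold change of 7.58. Cd274, the inhibitory ligand PD-L1, rose by 3.12 and Icosl, a ligand of T cells, by 4.65. Cd80 and Cd86, which share the receptor CD28, differed in sign: Cd80 rose by 2.39 and Cd86 fell by 1.01. B2m, the light chain of class I, was not called, with a 95% interval of -0.17 to 0.23 on the log2 scale.

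Cell division genes were lower in Dex+LPS: of 40 tested 2 rose, 35 fell and 3 were not called (median -1.17). In LPS against vehicle the median was -2.11, and in Dex+LPS against LPS 29 were higher and 2 lower. Ccnd1, the G1 cyclin, had 98.8, 95.1, 89.5 and 105 in Dex+LPS, 85.7, 74.0 and 71.7 in LPS and 4019, 4156 and 4267 in vehicle, and its log2 fold change was -5.40 over vehicle (SE 0.25, limma adjusted p = 7.47e-13). Dex+LPS and LPS libraries were low alike, and 22.3% of the 31-base words of Ccnd1 occur in another gene. Mcm6, a subunit of the replicative helicase, averaged 237 ± 12.8 in Dex+LPS (SD, n = 4) and 1317 ± 82.5 in vehicle (SD, n = 3), and E2f2, a factor of S phase genes, fell by 4.74 on the log2 scale. Mitotic genes fell as well: Top2a by 0.60, Cdk1 by 0.80 and Ccna2 by 1.37. The 2 genes that rose were Mki67, by 1.51, and Ccne1, by 1.21. Mki67, a chromosome surface protein of cycling cells, averaged 3836 ± 406 in Dex+LPS (SD, n = 4), 6932 ± 666 in LPS (SD, n = 3) and 1344 ± 133 in vehicle (SD, n = 3). Cdkn1a, the cell cycle inhibitor p21, rose by 3.17.

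Cholesterol synthesis genes were higher in 19 of 24, lower in 2 and not called in 3 (median 1.03). Idi1, an isomerase of the isoprenoid steps of the pathway, averaged 2693 ± 377 in Dex+LPS (SD, n = 4) and 662 ± 48.7 in vehicle (SD, n = 3), a log2 fold change of 2.01, and Mvd, a decarboxylase of the same steps, rose by 2.21. Dhcr7, which makes cholesterol from its last precursor, fell by 1.39. Among LXR targets and efflux genes 3 rose, 8 fell and 3 were not called of 14, with Abcg1, a cholesterol exporter, down by a log2 fold change of -3.33 (575 ± 59.0 in Dex+LPS and 5757 ± 116 in vehicle, SD, n = 4 and 3). Plin2, the coat protein of lipid droplets, fell by 2.13.

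Of 20 glycolysis genes 8 rose, 5 fell and 7 were not called, beside 32.6% of all genes higher and 33.2% lower. Their median of 0.02 becomes -0.26 (6 higher and 10 lower) with equal totals, and without Dex+LPS libraries 2 and 4 the counts were 6 higher and 7 lower. Pfkfb3, which makes the activator of phosphofructokinase, had 13689, 10942, 13764 and 13732 in Dex+LPS, 3501, 3361 and 3669.8 in LPS and 321, 359 and 322 in vehicle. All 4 Dex+LPS libraries were above all LPS libraries, which were above all vehicle libraries (log2 fold changes 5.28 over vehicle and 1.89 over LPS, limma adjusted p = 3.8e-20 and 6.3e-13). Slc2a1, a glucose importer, rose by 1.70 and Hk3, a hexokinase, fell by 1.09, while Gapdh was not called (95% interval -0.11 to 0.28). Nuclear genes of oxidative phosphorylation were higher in 13 of 26, lower in 2 and not called in 11, and with equal totals 6 were higher and 7 lower. Without Dex+LPS libraries 2 and 4 these counts were 10 and 3. None of the 13 mitochondrial transcripts was called with limma, with 0 at an unadjusted p under 0.05, 0 called by edgeR and 0 by DESeq2. With equal totals 1 was called lower. The 13 transcripts made up 1.20 to 1.82% of the normalized reads in Dex+LPS libraries and 1.87 to 2.15% in vehicle libraries.

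NRF2 targets, the genes of the antioxidant response, were higher in 14 of 17, lower in 1 and not called in 2 (median 1.25, 10 higher and 3 lower with equal totals). Slc7a11, the cystine importer, had 25894, 18063, 28869 and 24830.3 in Dex+LPS, against 256, 259 and 328 in vehicle (log2 fold change 6.43, SE 0.13, limma adjusted p = 4.9e-18). Hmox1, which degrades haem, rose by 2.05, Gsr, which regenerates glutathione, by 3.08 and Nfe2l2, the gene of NRF2 itself, by 1.65. Ftl1, the ferritin light chain, fell by 0.49. Of 18 genes of the unfolded protein response and ATF4 11 rose, 5 fell and 2 were not called. Over all genes the shares were 32.6% higher and 33.2% lower. The median of the list, 0.51, becomes 0.23 with equal totals, with 9 higher and 5 lower. Hspa5, the main chaperone of the endoplasmic reticulum, rose by 0.86, and Ddit3, a death-promoting factor, fell by 1.01. Of 14 p53 targets 6 rose, 4 fell and 4 were not called, beside 32.6% of all genes higher and 33.2% lower. The median of these targets, 0.24, becomes -0.04 with equal totals.

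Among complement genes 8 rose, 6 fell and 3 were not called of 17, beside 32.6% of all genes higher and 33.2% lower. C3, the central component, averaged 25362 ± 3397 in Dex+LPS (SD, n = 4) and 2265 ± 179.9 in vehicle (SD, n = 3), a log2 fold change of 3.48, and Cd55, which protects cells from complement, rose by 5.98 and was above LPS too. Cfb rose by 8.74, with 75.5% of its 31-base words in another gene. Among metalloproteinases and serpins 9 rose, 6 fell and 2 were not called of 17 tested, beside the same shares of all genes. Adamts4, which cleaves cartilage proteoglycan, averaged 814 ± 129.8 in Dex+LPS (SD, n = 4) and was listed at 0 in vehicle, at least 976-fold higher, and Mmp14, a membrane collagenase, rose by 8.02. Mmp13, a secreted collagenase, averaged 399 ± 61.8 in Dex+LPS (SD, n = 4), 21127 ± 1789.7 in LPS (SD, n = 3) and 113 ± 17.3 in vehicle (SD, n = 3), with a log2 fold change over vehicle of 1.81. Plau, the urokinase, fell by 5.59 and Timp2, an inhibitor of the collagenases, by 1.68.

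Genes of the BAF chromatin remodelling complex were higher in 13 of 22, lower in 4 and not called in 5, with small sizes (median 0.43, 9 higher and 7 lower with equal totals). Smarca4, the ATPase Brg1, averaged 1966 ± 186 in Dex+LPS (SD, n = 4), 2880.0 ± 121 in LPS (SD, n = 3) and 1547 ± 75.6 in vehicle (SD, n = 3), a log2 fold change of 0.34 (limma adjusted p = 0.000993), and with equal totals the call was lost (log2 fold change 0.06). Smarca2, the alternative ATPase, fell by 1.95. Of 26 cytosolic ribosomal protein genes 3 rose, 1 fell and 22 were not called, with log2 fold changes between -0.21 and 0.44. Without Dex+LPS libraries 2 and 4 the counts were 1 higher and 3 lower, and with equal totals 0 higher and 6 lower.

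Some further genes named here share over 10% of the 31-base words of their transcripts with another gene, so the way their reads were split among similar sequences is uncertain. They are Ccna2, Cd274, Cd55, Cebpb, Csf1r, Ctsb, Ctsd, Ctsl, Dbp, Dusp5, Ftl1, Gapdh, Idi1, Ifit1, Ifit3, Ifit3b, Il1a, Irak2, Isg15, Itgam, Lyz2, Nfkb2, Odc1, Ptger4, Txnip and Zfp36l1.

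**Figure D5:**
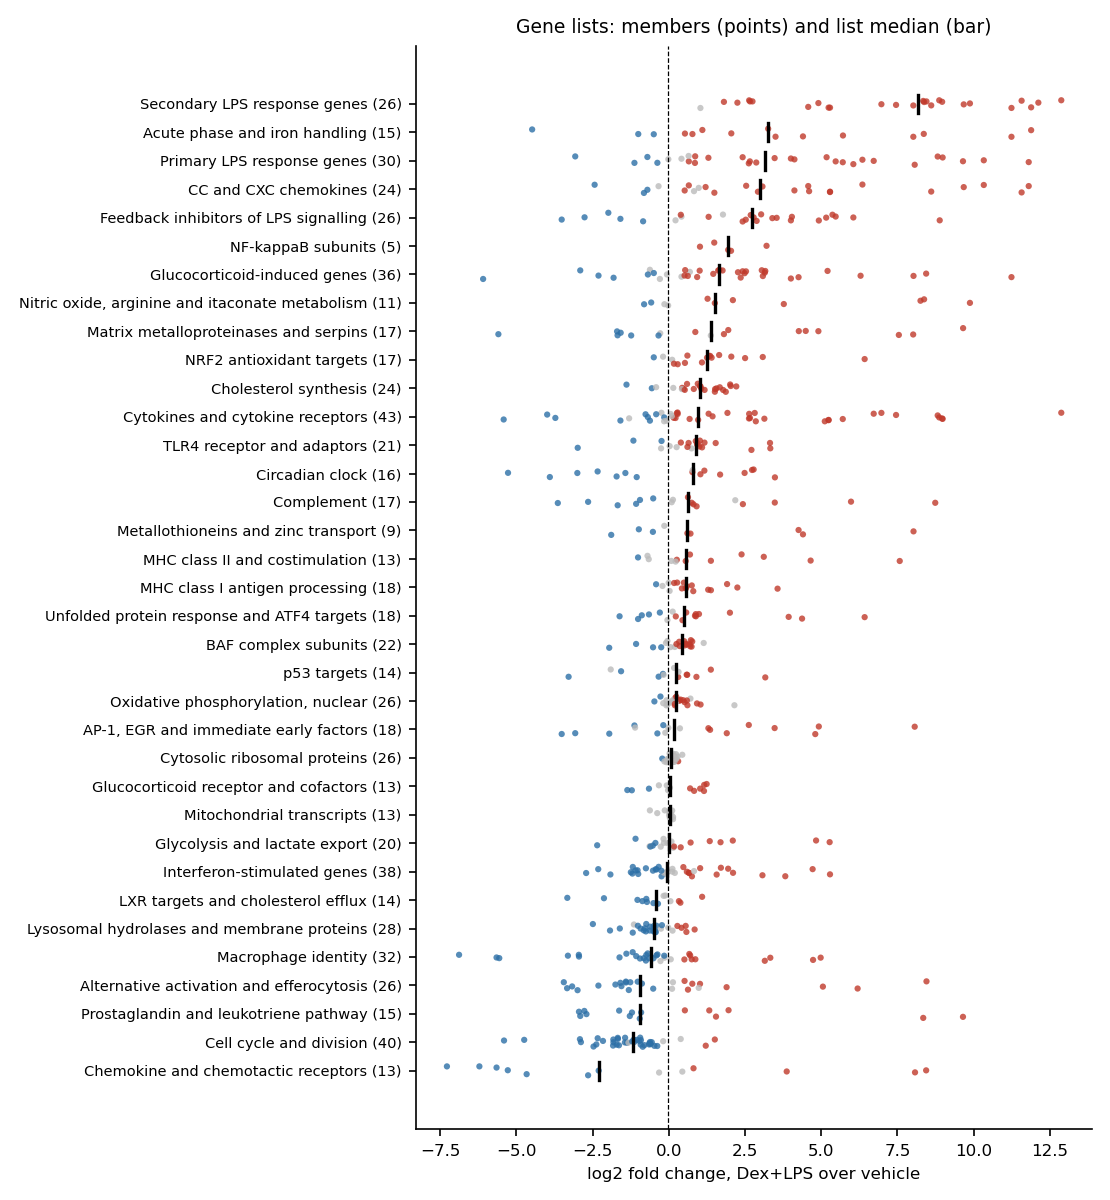
Each row is a gene list with the number of tested members in brackets, ordered by its median. Points are members' log2 fold changes of Dex+LPS over vehicle, red where called higher, blue where called lower and grey where not called, a black bar marks the list median and the dashed line the median of all tested genes (-0.03). Secondary LPS response genes have the highest median (8.18) and chemotactic receptors the lowest (-2.30).

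The net difference was also measured in macrophages with siRNA against Brg1, in 4 Dex+LPS and 3 vehicle libraries that share none with the control siRNA. Library 4 of Dex+LPS with either siRNA has a number from the other range, and across 8408 genes the deviations of these 2 libraries from their group means correlated at r = 0.698. Of the genes higher with control siRNA, 3451 were also higher with Brg1 siRNA, 87.8% of the 3932 and 85.8% of the 4022 called with Brg1 siRNA. For lower genes 3427 were shared, 85.5% of 4008 and 83.4% of 4107, and 16 higher and 44 lower genes were called in opposite directions. A test of the difference between the siRNAs called 740 genes with a more positive change with Brg1 siRNA (6.14%) and 328 with a more negative one (2.72%), together 8.85%. Without the libraries numbered in the other range these counts were 750 and 362. The genes of largest change were chosen on the control siRNA libraries, which also enter this difference. The 6 of them that passed its threshold are given next, as a description only. Saa3 and Il6 had smaller log2 fold changes with Brg1 siRNA (differences of -2.02 and -1.21), as did Shisa3 (-1.97) and Acod1 (-0.94), while that of Cxcl2 was larger (0.53). The fold change of Rnase6 was less negative with Brg1 siRNA, with a difference of 3.49. With control siRNA, Il6 and Shisa3 held no reads in vehicle and Rnase6 held few in Dex+LPS. Their fold changes therefore depend on the constant added before the logarithm. Over the other settings they ran from 10.56 to 15.95 for Il6, 10.71 to 16.1 for Shisa3 and -7.83 to -4.85 for Rnase6. Fkbp5 and Tsc22d3 showed no called difference (0.55, 95% interval 0.06 to 1.04, and -0.15, -0.50 to 0.19).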

How the data were processed

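RNA of 20 samples was sequenced. The deposited table lists 17787 genes with a signal per library that is a DESeq normalization, per the file headers. The authors' own log2 fold changes, standard errors (scores) and p-values in that table were deposited with it and not used. The submitters' processing notes name Salmon 1.4.0, DESeq, DESeq2 and R 4.1.0 and the builds mm10 and GRCm38.p6. The labels' protocols name a stranded mRNA kit and also rRNA depletion, and the strand counted is not given in the sources used here. Whole reads were recovered from the deposited signal (99.95% of values above 0 within 0.01 of a whole number, 100% within 0.06), which gave the depths and the reads for edgeR and DESeq2.

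Genes at 10 or more normalized reads in at least 3 samples were kept (12061). Log2(normalized reads + 1) was tested with limma 3.58.1 (R 4.3.3, trended prior), with 1 mean per group, all 6 groups in the fit and Benjamini-Hochberg adjustment over all genes at 0.05. The procedure was checked on simulated data in which the size factors were known, so the scaling was not checked by it. Named were the 12 largest rises and 12 largest falls among called genes whose groups do not overlap, with a mean of at least 50 in the higher group and no library there below 0.25 of it, Gm and Rik symbols left out, up to 4 called members of each list with the largest change, and a fixed list. Some genes that meet the rule are not reported here. Other genes were named after their values were seen. The members and the 43 lists (791 genes, 681 tested) were chosen with earlier results of these data known. Alternatives were other pseudocounts (0.5 and 5), filters (none and 50), scalings, tools (edgeR 4.0.16, DESeq2 1.42.0), a replicate block, fits of the compared groups only and left-out libraries. Gene coordinates are GENCODE vM21 (GRCm38), promoters RefSeq, with a window for 121 of 164 genes named by the rule.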

Additional observations from a re-analysis of the deposited data

Results flagged for a closer look

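In 56 genes whose Dex+LPS values were checked library by library, 9 had a library whose gap to its nearest neighbour, divided by the range of the 4 Dex+LPS libraries, was above the critical value of 0.83. Chance gives about 1 such gene in 20. Library 2 was the far one in 5 of them: it was highest for Saa3 (ratio 0.943), Ccl5 (0.852) and Kit (0.881) and lowest for Tnfaip3 (0.928) and Pfkfb3 (0.973). Library 3 was highest for Mrc1 (0.848) and for Tyrobp (0.878), which had 0, 111, 913 and 0 normalized reads in Dex+LPS. Cmah had 8.16, 0, 0 and 0 normalized reads in the Dex+LPS libraries and Rnase6 0, 0, 0 and 2.30, so that a single library with any reads gave a ratio of 1 in each.

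Of the 23 genes of largest change described above, 6 passed the threshold of the limma test of the difference between the siRNAs, beside 8.85% of all genes. These genes were chosen for their change with control siRNA, and the same libraries enter the difference. The count is therefore not a test of these genes, and the values are a description. The Brg1 siRNA minus control siRNA difference was -1.97 for Shisa3, -1.21 for Il6, -2.02 for Saa3, 0.53 for Cxcl2, -0.94 for Acod1 and 3.49 for Rnase6. Those of Shisa3, Il6 and Rnase6 rest on a group with few or no reads, as described above.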

How the results depend on the processing

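Over 19 other settings, 4748 of 4782 pairs of a named gene and a setting kept the side of the threshold, 21 lost the call and 10 gained it. A reversed direction was counted only where the main test or the setting called the gene. This held in 3 pairs, all with equal column totals: Lyz2 (-0.22), Gapdh (-0.20) and B2m (-0.26), none of them called in the main test. Differences that neither fit called could change sign without being counted, as for Ctsc, with log2 fold changes from -0.16 to 0.27. Equal totals moved the counts most, to 2721 higher and 5540 lower for Dex+LPS against vehicle, 5269 and 1647 for Dex+LPS against LPS, and 2434 and 6850 for LPS against vehicle. Leaving out 1 library at a time gave 3687 to 3991 higher and 3672 to 3983 lower for Dex+LPS against vehicle, 2485 to 2798 and 2726 to 3075 against LPS, 4119 to 4185 and 4220 to 4267 for LPS against vehicle, and 545 to 812 and 236 to 384 for the difference between siRNAs. Same-numbered Dex+LPS and vehicle libraries did not deviate together (correlations of their deviations from the group means -0.10, -0.17 and -0.00057, and none of these libraries correlated best with its own number), so the numbers were not taken as pairs, and a fit with the replicate number as a block called 3944 higher and 4046 lower. DESeq2 called 3990 and 4027, and edgeR 4011 and 3982. Without Dex+LPS libraries 2 and 4, an alternative chosen after seeing the data, the counts were 3875 and 3826.

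The p-values rest on 4 and 3 libraries, and on a shared spread over all 6 groups of the study. Genes with few reads in a group are limited by depth: with 0 reads the bound is set at 3 reads over the group, and these bounds and the counting intervals cover counting error only. Values of Dex+LPS against LPS and of LPS against vehicle share libraries with the comparison described here. Whether the labelled replicates are separate animals is not known.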

Other observations

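Several genes that are better known from other cell types were high in Dex+LPS. Pdgfrb, a growth factor receptor of stromal cells, had 729, 602, 658 and 816 normalized reads in Dex+LPS, 957, 1022 and 1012 in LPS and 2.51, 1.66 and 2.62 in vehicle, with no overlap of Dex+LPS and vehicle (log2 fold change 7.75, limma adjusted p = 7.28e-19). Hdc, the enzyme that makes histamine in mast cells and basophils, averaged 142 ± 12.5 in Dex+LPS (SD, n = 4), 834 ± 74.6 in LPS (SD, n = 3) and 1.70 ± 1.48 in vehicle (SD, n = 3). S100a8, a calcium-binding protein of neutrophils, averaged 301 ± 51.1 in Dex+LPS (SD, n = 4), 108 ± 22.7 in LPS (SD, n = 3) and 19.5 ± 0.376 in vehicle (SD, n = 3), above both (limma adjusted p = 1.87e-13 and 4.85e-07). The neutrophil marker list it belongs to did not move as 1 group: 3 of 7 tested members rose, 2 fell and 2 were not called, with 2 higher and 2 lower without Dex+LPS libraries 2 and 4, and the summed list made up 0.00540 to 0.00651% of the normalized reads in Dex+LPS libraries and 0.00510 to 0.00610% in vehicle libraries. In the opposite direction, Kit, the stem cell factor receptor, had 0, 8.55, 1.02 and 0 in Dex+LPS, 87.9, 74.0 and 68.5 in LPS and 96.3, 120.2 and 147 in vehicle, a log2 fold change of -5.84 over vehicle. The mast cell and basophil marker list had 2 tested members, Hdc, which rose, and Kit, which fell. The summed fibroblast marker list made up 0.00420 to 0.00587% of the normalized reads in Dex+LPS libraries and 0.000112 to 0.000152% in vehicle libraries, and its tested members were Pdgfrb and Fn1, which was not called (log2 fold change 0.44). The part of other cell types in these values was not tested.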
